A study of Homo sapiens with 6 samples.

Results

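The noncoding host genes of small nucleolar RNAs GAS5, SNHG1, SNHG3, SNHG5, SNHG6, SNHG7, SNHG8, SNHG12, SNHG27 and ZFAS1 were read in HT29 cells, an established line from a human adenocarcinoma of the colon, under NS398 and without it. NS398 selectively inhibits cyclooxygenase-2, the inducible enzyme of prostaglandin synthesis. Per the methods of the study, cells stood in serum-free medium for 72 h with 100 µM NS398 dissolved in DMSO or, as control, with DMSO alone (the profiled controls are also called untreated), and RNA from 3 samples of each kind went onto HG-U133 Plus 2.0 arrays. The study calls the 3 samples of a group biological replicates, while nothing in the labels ties an array to a separate culture, and p-values measure only the spread between these samples, and a single line in culture limits what either group can stand for. A probe set was taken as theirs where the platform annotation names one of these 10 genes (of 19808 named on the array) alone or with only small nucleolar RNAs beside it, which gave 21 of the 54675 probe sets. The genes were selected on their NS398 against control difference in log2 signal, so those differences are a description and are given without p-values.

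Small nucleolar RNAs (snoRNAs) guide the chemical modification of ribosomal RNA, the C/D class (SNORD) directing methylation and the H/ACA class (SNORA) directing pseudouridylation. In human cells most are cut from the introns of longer transcripts, the host genes, while the joined exons leave the nucleus as a separate spliced RNA. Many host transcripts begin with a terminal oligopyrimidine tract (TOP), a cytosine followed by an unbroken run of pyrimidines that they share with the messengers of ribosomal proteins, and several of the noncoding ones are degraded by nonsense-mediated decay when ribosomes read them. GAS5 was named for its accumulation in growth-arrested cells. The long host RNA carries a poly(A) tail, on which the standard labelling of these arrays primes, whereas the trimmed snoRNAs carry none. The probe sets were taken to read the host RNA by their annotation, and where their probes lie was not checked.

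In the RefSeq gene table (GRCh38.p14) 9 of the 10 genes contain snoRNA genes within their bounds, 35 in all. GAS5 holds 11, of which 1 is of the H/ACA class, SNHG1 holds 9, SNHG12 holds 4 and ZFAS1 holds 3 of the SNORD12 group. SNHG3, the host of the H/ACA pair SNORA73A and SNORA73B, SNHG5, the host of SNORD50A and SNORD50B, and SNHG7, the host of SNORA17A and SNORA17B, hold 2 each. SNHG6 holds SNORD87 and SNHG8 holds SNORA24. SNHG27 holds 0 snoRNA genes in this table. It carries the family's name, and the table does not bear out the label of host gene for it.

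The annotated start sites were read for a pyrimidine tract. Where the RNAs begin in these cells was not measured, so a window without a run does not show that the RNA lacks a tract. The windows printed here run from 40 bases before to 20 bases from the annotated start onward, 5′ to 3′ on the gene's strand, from the RefSeq promoter table of build GRCh38.p14, and capitals mark the pyrimidine run that begins with a C at the annotated first base. SNHG5, SNHG7, SNHG12 and ZFAS1 are shown for their runs, SNHG1 for a run interrupted by an A, and GAS5 and SNHG27 because none starts at their annotated first base.
SNHG5: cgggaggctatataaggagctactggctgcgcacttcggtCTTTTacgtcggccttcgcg
SNHG7: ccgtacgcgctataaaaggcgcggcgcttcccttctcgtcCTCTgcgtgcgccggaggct
SNHG12: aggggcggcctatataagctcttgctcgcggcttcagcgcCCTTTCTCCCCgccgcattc
ZFAS1: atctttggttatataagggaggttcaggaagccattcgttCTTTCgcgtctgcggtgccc
SNHG1: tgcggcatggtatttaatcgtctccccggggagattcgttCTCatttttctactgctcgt
GAS5: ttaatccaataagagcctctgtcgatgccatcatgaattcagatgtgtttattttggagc
SNHG27: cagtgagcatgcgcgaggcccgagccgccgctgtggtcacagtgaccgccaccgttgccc

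These windows lie at chr6:85678714-85678773 (minus strand) for SNHG5, chr9:136728165-136728224 (minus) for SNHG7, chr1:28581854-28581913 (minus) for SNHG12 and chr20:49278602-49278661 (plus) for ZFAS1. Those of SNHG1, GAS5 and SNHG27 lie at chr11:62855866-62855925 (minus), chr1:173869026-173869085 (minus) and chr4:131764798-131764857 (plus). A C at the first base within a run of at least 5 pyrimidines was present in 3 of the 9 members that the table holds (SNHG5, SNHG12 and ZFAS1), in 43 of 63 ribosomal protein genes, in 4 of 20 other noncoding host genes and in 4.04% of the 27305 promoters in all. A run of at least 4, also tried, added SNHG7 and gave 4 of 9, 44 of 63, 5 of 20 and 5.45%. The letters TATAA stood on the gene's strand between 40 and 15 bases before the start in 5 of the 9 (SNHG5, SNHG7, SNHG8, SNHG12 and ZFAS1). They stood there in 6 of 63 ribosomal protein genes, 1 of 20 other noncoding host genes and 4.22% of all promoters. TATAA and the run at the first base were searched for after the sequences had been seen. Of the other letters searched on both strands of the whole 300-base promoters, CACGTG was present in SNHG7 alone (7.43% of all promoters), TGACNNNGC in SNHG27 alone (13.6%) and TGATGNAA in 0 of the 9 (3.67%). A pyrimidine run of at least 5 that starts with C anywhere within 20 bases of the start was present in 6 of the 9. It was present in 59 of 63 ribosomal protein genes, 15 of 20 other noncoding host genes and 47.6% of all promoters. These matches are a description of the letters in the windows.

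Signals are given per array in the order of the replicate numbers, group values are geometric means, and a difference is the mean log2 signal under NS398 less that of the controls (± SE from the fit, 3 arrays per group). A probe set is said to have passed where its adjusted p was under 0.05 by limma with a prior variance that follows the signal level (the variance-trend test), fitted and adjusted over all 54675 probe sets. All directions follow the deposited labels, and for most regulated genes to which the study's text gives a direction, the one under the deposited labels is opposite. Had the labels been exchanged, the sign of every difference given here would turn. Fewer cells and less RNA per cell cannot be told apart in RNA from whole cultures.

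The median probe set signal of an array lay between 65.0 and 80.2 in the arbitrary units of the deposited values. Arrays of 1 group correlated with r = 0.961 to 0.983 and arrays of different groups with r = 0.931 to 0.952 over log2 signals whose mean was above 7 (Pearson, across probe sets, which are not independent). Markers of colon epithelium had a median signal over 12 genes of 8961 in control and 8520 in NS398 arrays. The medians over leukocyte (9 genes), fibroblast (8) and endothelial (7) markers lay between 22.1 and 51.0. Among the colon markers CDX1 (25.9 in control and 26.3 in NS398 arrays), CDX2 (46.0 and 38.3) and CDH17 (40.9 and 45.5) were as dim as those medians. These genes are named after their values were seen. Of the colon markers 3 rose and 1 fell (5.27% and 4.85% of all genes), with 3 higher and 3 lower at an unadjusted p under 0.05. CEACAM5 (4.09 ± 0.20, adjusted p = 2.54e-06), KRT20 (1.15 ± 0.11, adjusted p = 1.69e-04) and LGALS4 (0.38 ± 0.08, adjusted p = 0.0147) rose, and VIL1 fell (-0.71 ± 0.13, adjusted p = 0.00895). Among the markers of other cell types 1 rose, LUM of fibroblasts (from 45.5 to 215, adjusted p = 0.00514), and 0 of the leukocyte (0 higher and 2 lower at an unadjusted p under 0.05, 1 and 1 by plain limma) and endothelial markers (0 and 0 by both) passed. Their summed signals overlapped between the groups, with 403 to 449 in control and 326 to 464 in NS398 arrays for leukocytes, 673 to 975 and 890 to 1050 for fibroblasts, and 252 to 361 and 307 to 367 for endothelium. For ACTB the 3′ signal over the 5′ signal, which rises as RNA is degraded, was 1.29 ± 0.03 (SD) over the 3 controls and 1.56 ± 0.14 over the 3 NS398 arrays, and the 3′ probe set of 18S rRNA gave 3453, 3783 and 4856 in the control and 23625, 12397 and 4825 in the NS398 arrays. The same ratio for GAPDH overlapped between the groups, with 0.969 to 1.08 in control and 1.04 to 1.21 in NS398 arrays, as did the 5′ and middle probe sets of 18S rRNA (differences of 0.84 ± 1.01 and 0.41 ± 0.70). The ACTB ratio was apart between the groups and the 3′ signal of 18S rRNA overlapped in 1 NS398 array, and their part in the results that follow was not tested.

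The host transcripts were higher in the arrays labelled NS398. Of the 21 probe sets, 20 had the higher mean in NS398 arrays (54.2% of all probe sets), and in 17 every NS398 array lay above every control array (13.4% of all probe sets). By the variance-trend test 11 passed as higher (3.26% of all probe sets) and 0 as lower (3.17%, and 6.43% in either direction), with 16 higher and 0 lower at an unadjusted p under 0.05. By plain limma, whose prior variance is shared by all probe sets, 1 passed as higher (0.0348% of all), that of SNHG27, and 0 as lower (0.00914%), with 11 higher and 0 lower at an unadjusted p under 0.05. Of the 21 probe sets 18 belong to the 22399 whose mean log2 signal was above 7, over which the shares were 50.7% with the higher NS398 mean, 20.5% with every NS398 array above every control array and 7.27% passed as higher. When each gene is read from its probe set with the highest mean, the median difference over the 10 genes was 0.63, against 0.07 over all 19808 genes read in the same way, and over the 9 genes other than SNHG27 it was 0.60. Because the genes were picked with this contrast in view, these counts describe the group and are no evidence for its direction.

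**Figure D1:**
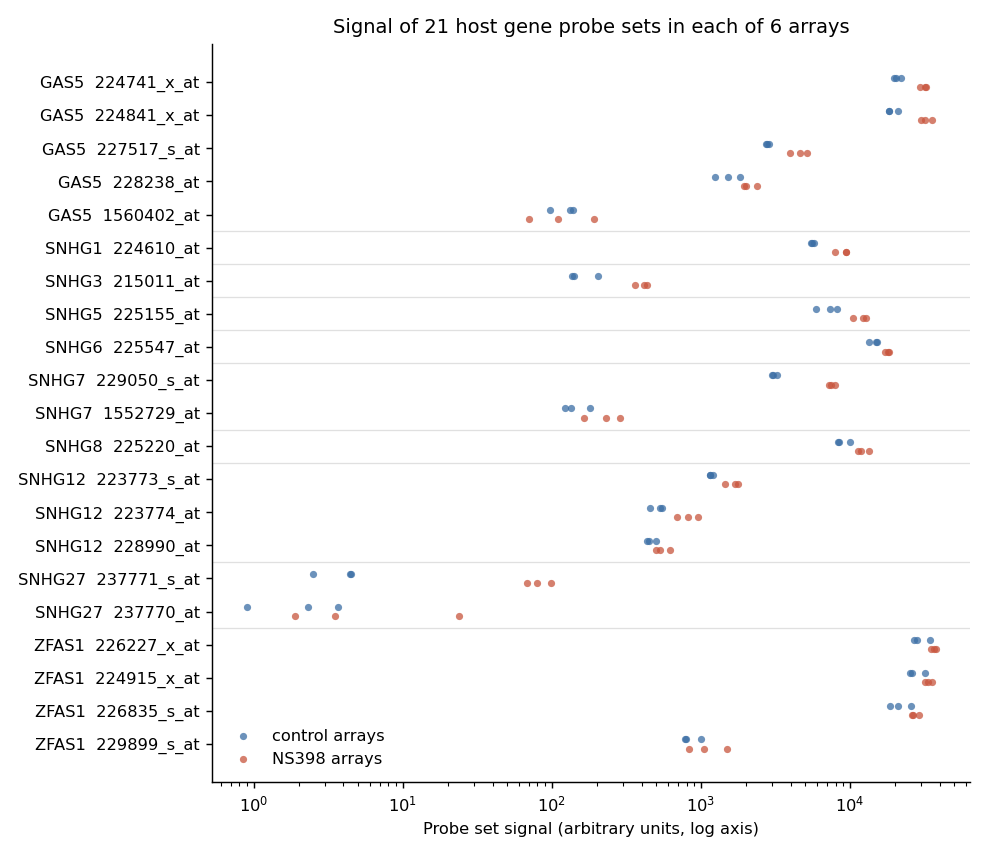
Signal of the 21 host gene probe sets on the 6 arrays (1 point per array, logarithmic axis, arbitrary units), ordered by gene and within a gene by mean signal, blue for control and red for NS398 arrays. In 17 of the 21 rows all NS398 points lie to the right of all control points, and 237771_s_at of SNHG27 goes from 2.5 to 4.5 in control to 68.0 to 98.1 in NS398 arrays.

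The same order was seen in each array. Set against the control mean of the gene, all 10 genes were higher in NS398 replicate 1 (median 0.69 on the log2 scale), in NS398 replicate 2 (0.53) and in NS398 replicate 3 (0.64). Among the controls the medians were -0.04, 0.08 and -0.02, and control replicate 2 had the highest control signal in 6 of the 10 genes. NS398 replicate 2 had the lowest NS398 signal in 5 of them.

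GAS5, a host of many C/D snoRNAs whose spliced RNA is also known as a decoy of the glucocorticoid receptor, has 5 probe sets. The one with the highest mean (224741_x_at) had signals of 19696, 21798 and 20218 in control and 31824, 32283 and 29278 in NS398 arrays, a difference of 0.60 ± 0.08 or 1.51-fold. In 224841_x_at the signals were 18378, 20930 and 18322 in control and 35632, 31763 and 29902 in NS398 arrays (0.75 ± 0.09). The groups were apart by a wide margin in both, whose suffix marks probes that may also bind related sequences. In 227517_s_at the difference was 0.70 ± 0.12 (from 2788 to 4537), and in 228238_at it was 0.47 ± 0.15 (from 1518 to 2107), where the groups did not overlap but the test was not passed. The fifth, 1560402_at, which names GAS5 with no snoRNA beside it, gave 97.4, 139.5 and 133.1 in control and 192.3, 110.3 and 70.4 in NS398 arrays (-0.09 ± 0.39). Its groups overlap fully, and it is the single host gene probe set with a lower NS398 mean.

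SNHG1, the host of a series of C/D snoRNAs from SNORD22 to SNORD31, has 1 probe set. Its signals were 5735, 5476 and 5566 in control and 9436, 7952 and 9320 in NS398 arrays, a difference of 0.67 ± 0.10 or 1.59-fold. The 3 controls lay close together and well below the lowest NS398 array. SNHG5, another C/D host, known for a translocation breakpoint in lymphoma, gave 5890, 8112 and 7387 in control and 12209, 10414 and 12814 in NS398 arrays. This is a difference of 0.74 ± 0.13 or 1.67-fold, and again no control array reached the NS398 range. SNHG6, the host of SNORD87, differed less, with 14867, 15255 and 13350 in control and 17889, 18277 and 17178 in NS398 arrays (0.30 ± 0.09, 1.23-fold). Its groups were apart, and it did not pass.

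ZFAS1, named as the antisense partner of the ZNFX1 promoter and host of the SNORD12 group, has 4 probe sets with differences from 0.28 to 0.36, of which 0 passed. The one with the highest mean (226227_x_at) gave 26909, 34519 and 28196 in control and 37683, 36432 and 35094 in NS398 arrays (0.29 ± 0.10). Control replicate 2 lay near the NS398 range in it, and in 3 of the 4 probe sets the groups were still apart. Without control replicate 2 the difference was 0.40 and passed.

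Hosts of H/ACA snoRNAs differed by unequal amounts, from 0.46 in SNHG8 to 1.35 in SNHG3. SNHG7, the host of SNORA17A and SNORA17B, gave 3215, 2974 and 3042 in control and 7904, 7191 and 7477 in NS398 arrays in 229050_s_at, a difference of 1.29 ± 0.10 or 2.44-fold. The spread within each group was small beside the step between them. Its second probe set, 1552729_at, had a dimmer signal and overlapping groups, with 123.3, 181.5 and 134.7 in control and 231.8, 164.9 and 287.6 in NS398 arrays (0.62 ± 0.28). SNHG3, the host of the SNORA73 pair, which is needed for early cleavage of the ribosomal RNA precursor, gave 140.0, 205.4 and 136.7 in control and 414.8, 361.7 and 436.2 in NS398 arrays. The difference was 1.35 ± 0.23 or 2.55-fold, with the groups apart. SNHG8, the host of SNORA24, differed by 0.46 ± 0.11 (1.38-fold), with 10008, 8408 and 8235 in control and 13475, 11913 and 11231 in NS398 arrays. Its groups were apart, and the call was lost without control replicate 2 (0.42), control replicate 3 (0.41), NS398 replicate 1 (0.39) or NS398 replicate 2 (0.48).

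SNHG12, which hosts SNORA16A, SNORA44, SNORA61 and SNORD99, has 3 probe sets, in each of which the groups were apart. In 223773_s_at the signals were 1149, 1198 and 1158 in control and 1767, 1444 and 1698 in NS398 arrays (0.48 ± 0.13), and this call was lost without any 1 of the 6 arrays, where the difference was 0.42 to 0.57. In 223774_at they were 456.4, 532.1 and 551.0 in control and 948.8, 693.5 and 814.9 in NS398 arrays (0.67 ± 0.17). In 228990_at the step was smaller, from 459 to 548 (0.25 ± 0.16), and did not pass. The 3 probe sets of this gene thus ran the same way with differences of unequal size.

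SNHG27, a long noncoding RNA for which no snoRNA gene was found within its bounds, differed by more than the other members and from the lowest signals. In 237771_s_at the signals were 2.5, 4.4 and 4.5 in control and 68.0, 79.6 and 98.1 in NS398 arrays, a difference of 4.46 ± 0.80. The control values are near the lower end of the array's scale, where a fold has little meaning, and after addition of 32 to every signal the difference was 1.66. Its second probe set, 237770_at, gave 2.3, 3.7 and 0.9 in control and 1.9, 3.5 and 23.9 in NS398 arrays (1.46 ± 1.08). NS398 replicate 3 alone stood above the controls there, so the 2 probe sets of this gene did not show the same pattern, and their mean difference was 2.96.

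**Figure D2:**
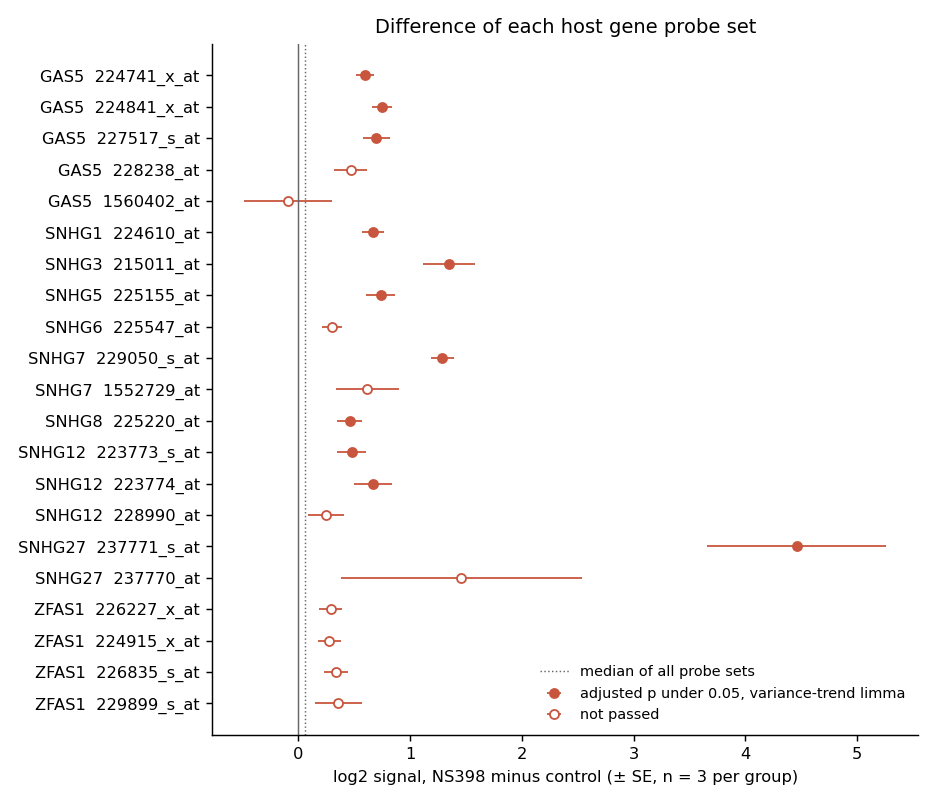
Horizontal axis, difference in log2 signal (NS398 less control) of each of the 21 host gene probe sets (points, bars are ± SE of the fit, n = 3 arrays per group), filled where the variance-trend test was passed; the dotted line is the median of all probe sets. Differences lie between 0.25 and 1.35 for most rows, with GAS5 1560402_at at -0.09 and the SNHG27 pair at 4.46 and 1.46.

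The size of a difference was read against genes of like signal. Among genes in the same half-unit interval of mean log2 signal, the 95th percentile of the difference was 0.79 around SNHG7, 0.88 around SNHG3 and 2.01 around SNHG27, and each of these genes lay above it. The other 7 lay between the median and the 95th percentile of their interval. For ZFAS1, with 0.29, the interval of 39 genes had a median of 0.19 and a 95th percentile of 0.50. For GAS5, with 0.60, the values over 46 genes were 0.13 and 0.76. The host genes were picked on this difference, so a place high in the band was favoured beforehand and is a description only. The value of SNHG27 rests on control signals of 2.5 to 4.5 and was 1.66 with an offset of 32.

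**Figure D3:**
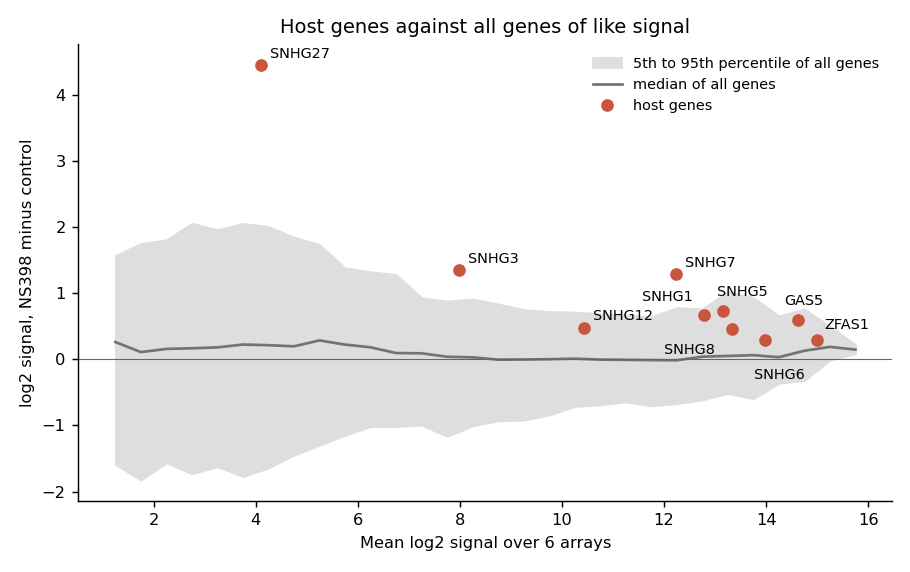
Difference in log2 signal, NS398 minus control, against the mean log2 signal over the 6 arrays for the 10 host genes (red points, probe set with the highest mean), with the median (line) and the 5th to 95th percentile (grey band) of all genes in half-unit intervals of signal. SNHG3, SNHG7 and SNHG27 lie above the band and the other 7 within its upper part. The host genes were picked on this difference.

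Noncoding host genes outside the group moved in part. Of 17 measured genes, 5 passed as higher and 0 as lower by the variance-trend test (5.27% and 4.85% of all genes), with 8 higher and 0 lower at an unadjusted p under 0.05, 0 by plain limma (6 higher and 0 lower unadjusted), and a median difference of 0.39 beside 0.07 over all genes. EPB41L4A-AS1, the host of SNORA13, rose from 7878, 8431 and 8694 in control to 13126, 12251 and 11973 in NS398 arrays (0.58 ± 0.09, adjusted p = 0.00278). SNHG19, the host of SNORD60, rose from 1807 to 3355 (0.89 ± 0.15, adjusted p = 0.00526), and SNHG32, the host of SNORD48 and SNORD52, from 8113 to 11567 (0.51 ± 0.10, adjusted p = 0.0109). SNHG29 and SNHG17, named after their values were seen, were the remaining calls, with differences of 0.80 and 0.58. With each array centred on its median 1 of the 17 passed, and without control replicate 3, NS398 replicate 1 or NS398 replicate 2 there were 3. Differences in this list ran from -2.44 for SNHG33 to 1.58 for SNHG22, both named after their values were seen and neither called.

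Protein-coding host genes and ribosomal protein genes were read as well. Of 33 measured coding host genes, 2 rose and 1 fell (5.27% and 4.85% of all genes), with 10 higher and 1 lower at an unadjusted p under 0.05 and a median difference of 0.18 beside 0.07 over all genes. HSPA9, the mitochondrial HSP70 and host of SNORD63, rose from 7525 to 14663 (0.96 ± 0.10, adjusted p = 2.87e-04), and WDR43, a factor of ribosomal RNA processing, from 1107 to 1692 (0.61 ± 0.12, adjusted p = 0.0112). TCP1, a subunit of the cytosolic chaperonin, fell from 5371 to 3991 (-0.43 ± 0.09, adjusted p = 0.0197). Of 64 ribosomal protein genes, 17 of them also in the coding host list, 63 had the higher mean in NS398 arrays, with a median of 0.16 and a highest difference of 0.32. This excess depends on the scaling, since after quantile normalisation 32 of the 64 had the higher mean (median 0.00) and after median centring 48 did (median 0.03). By the variance-trend test 0 passed, with 4 higher and 0 lower at an unadjusted p under 0.05 (0 and 0 by plain limma). The median signal of these genes was 47005 in control and 52594 in NS398 arrays, close to the top of the scale, where the highest signal of an array was 52000 to 80600. Without control replicate 2, 7 ribosomal protein genes and 6 coding host genes passed, and without NS398 replicate 2, 0 and 1 did.

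**Figure D4:**
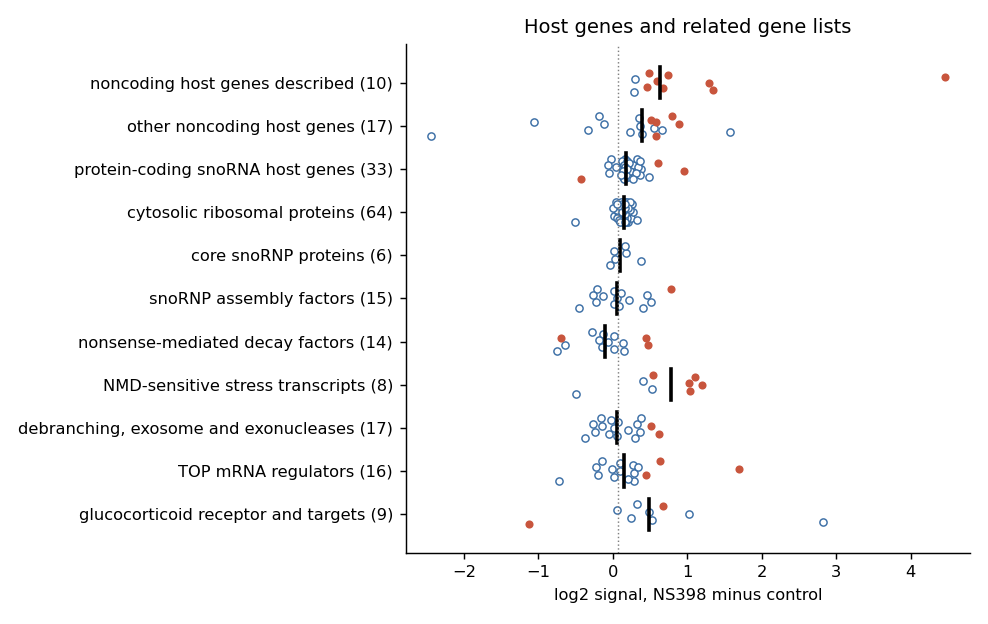
Difference in log2 signal, NS398 minus control, of every gene in the noncoding host genes described and in 10 related lists (points, filled red where the variance-trend test was passed, number of genes in brackets), with the median of each list (bar) and of all genes (dotted line). The medians are 0.63 for the host genes described, 0.39 for other noncoding hosts, 0.18 for coding hosts and 0.16 for ribosomal protein genes.

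The proteins that form and assemble snoRNA particles differed little. Of 6 measured core proteins of the particles (FBL, the methylating enzyme, NOP58, SNU13, GAR1, NHP2 and NOP10), 0 passed (1 higher and 0 lower at an unadjusted p under 0.05, 0 and 0 by plain limma), and their differences lay between -0.04 and 0.38, with a median of 0.10 that was -0.02 after median centring. Of 15 assembly factors 1 rose and 0 fell (5.27% and 4.85% of all genes). At an unadjusted p under 0.05, 3 were higher and 3 lower (1 and 0 by plain limma). The call was NOPCHAP1, a cofactor of C/D particle assembly, from 1119 to 1920 (0.78 ± 0.17, adjusted p = 0.0192). After median centring of the arrays, by plain limma, or without any 1 of the NS398 arrays, 0 assembly factors passed.

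Transcripts tied to nonsense-mediated decay were examined because several host RNAs are its substrates. Of 14 measured decay factors 2 rose and 1 fell (5.27% and 4.85% of all genes), with a median of -0.10 beside 0.07 over all genes. At an unadjusted p under 0.05, 2 were higher and 3 lower. The termination factors ETF1 (from 4473 to 6072, 0.44 ± 0.09, adjusted p = 0.0141) and GSPT1 (from 5579 to 7734, 0.47 ± 0.10, adjusted p = 0.0156) rose, and PNRC2, an adaptor to decapping, fell from 7884 to 4840 (-0.70 ± 0.11, adjusted p = 0.00291). After median centring 0 passed as higher and 1 as lower, PNRC2, so that ETF1 and GSPT1 lost their calls, and without NS398 replicate 1 a single factor passed. ETF1 and GSPT1 are also the release factors of normal termination. Over 8 stress-response transcripts known as substrates of the pathway the median was 0.79 beside 0.07 over all genes. At an unadjusted p under 0.05, 6 were higher and 1 lower. The lower one was ATF3 (-0.49 ± 0.15, with overlapping groups), named after its values were seen, and it did not pass after adjustment. By the variance-trend test 5 rose and 0 fell (5.27% and 4.85% of all genes). They include ATF4, the master factor of the integrated stress response (from 20041 to 41191, 1.04 ± 0.08, adjusted p = 3.06e-05), SLC7A11, the cystine transporter (1.20 ± 0.11, adjusted p = 1.01e-04), and DDIT3, a transcription factor (1.10 ± 0.17, adjusted p = 0.00294), the latter pair being known targets of ATF4.

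Regulators of messengers with a TOP tract were measured as well. Of 16 genes 3 rose and 0 fell (5.27% and 4.85% of all genes, with 5 higher and 1 lower at an unadjusted p under 0.05), with a median of 0.15 beside 0.07 over all genes. After median centring 2 passed as higher, LARP1 and EIF4EBP1, and 1 as lower, TIA1, named after its values were seen, with a median of 0.03. EIF4EBP1, a repressor of cap-dependent translation, rose from 2004, 1730 and 1650 in control to 5970, 5060 and 6298 in NS398 arrays (1.69 ± 0.12, adjusted p = 3.06e-05). LARP1, which binds the cap and the TOP tract, rose from 6994 to 10809 (0.63 ± 0.09, adjusted p = 0.00154), and CNBP, which also binds such messengers, from 8794 to 12014 (0.45 ± 0.10, adjusted p = 0.0257). By plain limma 0 genes of the coding host, assembly, decay, stress and TOP regulator lists passed.

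Probe sets that name only snoRNAs were mostly dim. The labelling primes on poly(A), which trimmed snoRNAs lack, so these probe sets were not taken as a measure of snoRNA levels. Which RNA these probe sets read was not checked. Of 24, 16 had the higher mean in NS398 arrays (54.2% of all probe sets) and 1 passed as higher (3.26% of all), the SNORA78 probe set, with 17.5, 17.9 and 16.1 in control and 104.3, 108.1 and 129.0 in NS398 arrays (2.72 ± 0.51, adjusted p = 0.00874). The groups stood clearly apart, and the call was lost without any 1 of the NS398 arrays. SNORA78 lies within SNHG9, and the probe set that names SNHG9 together with SNORA78 gave 60.1, 145.4 and 77.9 in control and 117.0, 120.0 and 152.7 in NS398 arrays (0.55 ± 0.38), with overlapping groups. The probe set for SNORD50A and SNORD50B, which lie within SNHG5, gave 368.6, 277.5 and 244.3 in control and 455.0, 525.3 and 393.0 in NS398 arrays (0.64 ± 0.21, adjusted p = 0.113). Its groups were apart, and its difference stands beside the 0.74 of SNHG5 itself. The SNORA17B probe set, which lies within SNHG7, was dim and went the other way, with 79.0, 18 and 7.4 in control and 12.5, 26.9 and 11.6 in NS398 arrays (-0.48 ± 1.00), and its groups overlapped. The 3 probe sets for SNORA71A and SNORA71B, which lie within SNHG17, also had lower NS398 means (-1.44, -0.68 and -1.03), with the groups apart in the first pair, and none of them passed. The probe set for SNORD50A and SNORD50B is 1 of 5 snoRNA probe sets brighter than a mean log2 signal of 7. All 5 had the higher mean in NS398 arrays (50.7% of all probe sets above that level), with a median of 0.44. Of the 24 probe sets, 3 passed as higher and 0 as lower at an unadjusted p under 0.05, and 2 and 2 by plain limma.

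Protein-coding neighbours of the host genes were read next. Of 20 measured protein-coding neighbours, those that overlap a host gene or lie nearest on either side in the RefSeq gene table at distances of up to 2648201 bases, 2 rose and 0 fell (5.27% and 4.85% of all genes), with 4 higher and 5 lower at an unadjusted p under 0.05 (0 passed by plain limma, with 2 higher and 3 lower unadjusted). SLC3A2, the heavy chain of amino acid transporters, starts 224 bases from SNHG1 on the opposite strand and rose from 2652 to 6570 (1.31 ± 0.12, adjusted p = 1.43e-04), and PRSS12, a secreted protease whose bounds end 215 bases from those of SNHG8, rose from 194 to 451 (1.21 ± 0.24, adjusted p = 0.0112). ZNFX1, 121 bases from ZFAS1, had signals of 958 and 780 (-0.30 ± 0.15). RCC1, which overlaps SNHG3, had 3972 and 3271 (-0.28 ± 0.15) with overlapping groups, and neither gene passed. The differences of ZNFX1 and RCC1 were opposite in sign to those of ZFAS1 and SNHG3. This was not particular to them, since neighbours with a lower NS398 mean also lay at SNHG5, SNHG6, SNHG7, SNHG8, SNHG12 and SNHG27. At SNHG5, SNHG7 and SNHG8 another neighbour had a higher mean.

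Among 10692 other genes with a mean log2 signal above 7, the profile over the 6 arrays nearest to the mean profile of the 10 host genes was that of RPP40, a protein of ribonuclease P, with a root mean square difference of 0.047 on the log2 scale. HAX1 (0.053), RXYLT1 (0.076), TRAK2 (0.078) and ATF4 (0.085) followed, each with groups that did not overlap. The arrays of a group share their treatment, and the mean profile is raised by the large step of SNHG27 (4.46). The genes named here differed by 0.98 (HAX1) to 1.07 (RPP40), above the host gene median of 0.63, or 0.60 without SNHG27. Of the other host genes only SNHG3 (1.35) and SNHG7 (1.29) differed by as much. The ranking thus describes closeness to a mean that includes SNHG27, and closeness to the remaining host genes was not tested.

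The differences kept their sign under each processing alternative when each gene was read from its probe set with the highest mean. Centring each array on its median lowered every difference, since it moved the median over all probe sets from 0.06 to -0.06, and changed the calls over all probe sets from 1782 higher and 1731 lower to 864 higher and 1943 lower. On that scale 8 of the 21 host gene probe sets passed, all as higher, and the median over the 10 genes was 0.51. SNHG7 ran from 0.96 to 1.32, SNHG3 from 1.19 to 1.54, SNHG5 from 0.60 to 0.84, SNHG1 from 0.55 to 0.75 and GAS5 from 0.48 to 0.64 over the alternatives. The 0.96 of SNHG7 came from averaging its probe sets, and from the brightest one its lowest difference was 1.17, under median centring. SNHG7, SNHG3, SNHG5, SNHG1 and GAS5 passed in 13 of 14 refits, the exception being plain limma, whereas SNHG8 passed in 8, SNHG12 in 5, SNHG6 in 2 and ZFAS1 in 1. The refits reuse the same arrays, and the genes were picked on this contrast. These counts therefore describe how the calls depend on processing and are no evidence for the direction.

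**Figure D5:**
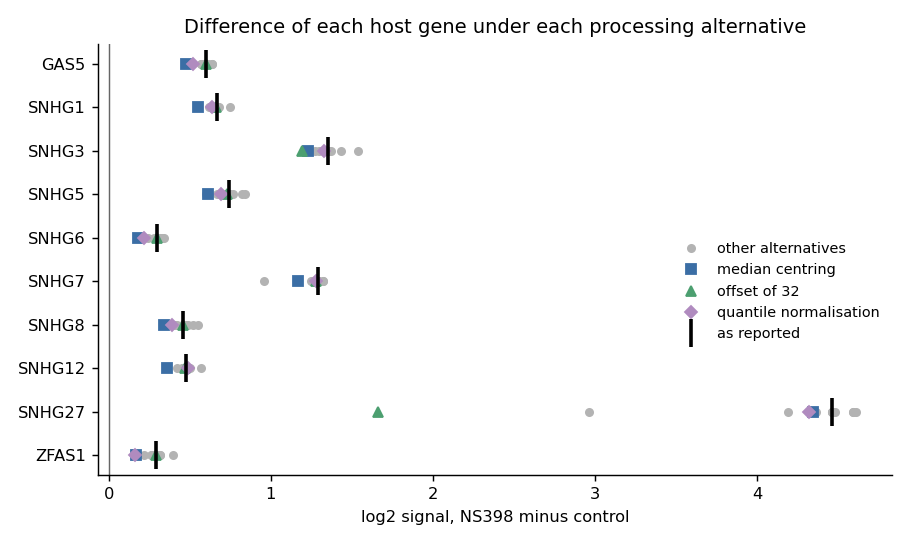
Difference in log2 signal, NS398 minus control, of each host gene as reported (black bar) and under each processing alternative (symbols; grey points are the remaining alternatives). All values lie above 0, from 0.16 for ZFAS1 to 4.61 for SNHG27, whose difference with an offset of 32 is 1.66.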

How the data were processed

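Gene expression was measured in 3 NS398-treated and 3 control HT29 samples, grouped by the treatment label, with 1 Affymetrix HG-U133 Plus 2.0 array for every sample. Per probe set and array the authors deposited an intensity on a linear scale, scaled to a trimmed mean of 500 in each array. These have the scale of MAS 5.0 signals, whereas the methods of the study name gcRMA with quantile normalisation. The affy package is named in the processing notes, its version being not given in the sources used here. There are no detection calls, and the number of arrays and the spread of dim signals limit precision.

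The deposited signals were analysed as log2 values without an added constant. Of 54675 probe sets 41097 name 1 gene, 1801 several and 11777 none. Symbols were updated by Entrez number, and a gene with only snoRNAs beside it was taken as the gene of its probe set. A gene was read from its probe set with the highest mean. Differences were fitted with lmFit and eBayes (trend and robust) of limma 3.58.1 in R 4.3.3, the model holding treatment alone, with Benjamini-Hochberg adjustment over all probe sets. The median prior degrees of freedom were 7.07, against 1.36 for plain limma. The study names SAM, which was not run. Host genes, 14 lists, tests and alternatives were chosen with earlier results of these data known. Named genes were every host gene probe set, the 3 called genes with the smallest p in each list, called snoRNA probe sets and neighbours, and the 5 nearest profiles; others are said to be named after their values were seen or stand beside a host gene. Alternatives were plain limma, centring on the array median, quantile normalisation, filters at a mean log2 signal of 4 or 7, an offset of 32, array weights, the replicate number as a block, averaging a gene's probe sets, and leaving out each array. The procedure was tested on simulated data. Promoter and protein-coding neighbour tables are RefSeq's. Figures were drawn with matplotlib 3.10.9.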

Additional observations from a re-analysis of the deposited data

How the results depend on the processing

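The number of host gene probe sets called (11) was 8 to 12 under the alternatives other than plain limma, all as higher, and 1 by plain limma. Plain limma called 24 of all probe sets (3513 by the variance-trend test), 1 gene of all lists together (29), and 0 neighbouring genes (2, with 2 higher and 3 lower at an unadjusted p under 0.05). Median centring left 16 calls over the lists and a median host gene difference of 0.51 (0.63 as reported). A mean log2 signal above 7 gave 6 called neighbours, where fewer probe sets were tested, and array weights gave 4 neighbours and 2 snoRNA probe sets (1 as reported). Without 1 array at a time, the calls ranged from 1826 to 3984 over all probe sets (1826, 1896 and 2340 on leaving out NS398 replicate 1, 2 or 3, and 1876 on leaving out control replicate 3), 8 to 11 over host gene probe sets, 18 to 35 over the lists, 0 to 2 over snoRNA probe sets and 1 to 4 over neighbours, and the median host gene difference from 0.59 to 0.66. The cause was not tested for these. With the replicate number as a block, 2462 probe sets and 9 host gene probe sets passed, and SNHG12 lost its call. Arrays of the same number did not deviate together (r = -0.137, -0.0633 and -0.104 across probe sets, and 0 of 6 arrays was closest to its own number), so the numbers were not taken as pairs. Dim signals, SNHG27 and most snoRNA probe sets among them, limit what these arrays can resolve.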

Other observations

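GAS5 RNA is known to bind the glucocorticoid receptor, and the receptor and its usual target genes were read beside it. NR3C1, the receptor, was dim, with 44.9, 8.0 and 16.0 in control and 37.2, 13.6 and 33.9 in NS398 arrays (0.53 ± 0.90), and its groups overlapped. Of 9 measured genes of this list 1 passed as higher and 1 as lower by the variance-trend test (5.27% and 4.85% of all genes). The median difference was 0.49 beside 0.07 over all genes. It includes ZBTB16 (2.82 ± 1.14) and G6PC1 (1.02 ± 1.23), which were dim, with control means of 7.70 and 7.14. Brighter were KLF9 (0.49 ± 0.28), PCK1 (0.33 ± 0.33), SGK1 (0.25 ± 0.25) and FKBP5 (0.05 ± 0.13), which did not pass. These genes are named after their values were seen. TSC22D3, a glucocorticoid-induced transcription regulator, rose from 1309, 1035 and 1373 in control to 2178, 1897 and 1853 in NS398 arrays (0.68 ± 0.14, adjusted p = 0.0149). DUSP1, a phosphatase of MAP kinases that is also an immediate early gene, fell from 10921, 13449 and 13802 to 4082, 7083 and 6624 (-1.13 ± 0.18, adjusted p = 0.00374). Without NS398 replicate 1 or NS398 replicate 2, and after median centring, 1 of the 9 passed, 3 passed without control replicate 1, and by plain limma 0 did (1 higher and 1 lower at an unadjusted p under 0.05).

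There were 17 measured genes for enzymes that free snoRNAs from the debranched intron and trim or degrade host RNA. Of these 2 rose and 0 fell (5.27% and 4.85% of all genes), with 5 higher and 0 lower at an unadjusted p under 0.05. Their median was 0.05, and -0.07 after median centring. EXOSC8, a subunit of the RNA exosome, rose from 2585, 2747 and 2964 in control to 4505, 4244 and 3999 in NS398 arrays (0.62 ± 0.10, adjusted p = 0.00493), and EXOSC5, another subunit, from 1974 to 2808 (0.51 ± 0.13, adjusted p = 0.046). With the replicate number as a block and without any 1 array other than control replicate 1, 1 of the 17 passed. After median centring and by plain limma 0 of the 17 passed (2 higher and 0 lower by plain limma at an unadjusted p under 0.05).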
